A study of Mus musculus with 3 samples.

Results

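The acid- and zymogen-secreting cells of the stomach were followed through 8 of their products: Atp4a and Atp4b, Slc26a9, Aqp4, Cblif (named Gif on the array), Pgc, Chia1 (named Chia on the array) and Lipf. They were chosen by gene name, with earlier results of these data known, and are 8 of the 27677 genes on the array design, read by 12 probes. The tissues came from mice labelled AID Tg, whose transgene encodes AID, the activation-induced deaminase that turns cytosine in DNA to uracil. The promoter and cell type that drive the transgene, the strain and the age are not given in the sources used here. On 3 two-colour arrays, 1 per organ, a liver cancer was set against nontumour liver of the AID Tg mouse that bore it, a gastric cancer against nontumour gastric tissue of the mouse that bore it, and a lung cancer of an AID Tg mouse against normal lung of a Wt mouse. The liver and stomach controls thus carry the transgene and the lung control does not. Scanner values were analysed for liver and stomach, and for lung the spots listed in the authors' deposited table of regulated genes.

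The labels put the cancers in the Cy3 channel and the control tissues in Cy5, while the authors' deposited table lists spots that are brighter in Cy5 under headings for genes up in tumour. By those headings Cy5 is the likely tumour channel, but the direction is not settled, so values are given by channel. A negative log2 ratio means that Cy3 was brighter. If the labels hold, a Cy3-high gene had the higher signal in the cancer, and if the table's headings hold, in the control tissue.

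With 1 array per organ and no dye swap there was no replicate and no test. Genes were counted at a size of 2-fold, and errors are the SD between a gene's probes or, where it has 1, the error that the scanner software assigns to the spot (log2); both cover measurement only. In bulk tissue, fewer cells of a type and less RNA per cell cannot be told apart. The negative controls had a median raw intensity of 119 in Cy3 and 68.4 in Cy5 on the stomach array and of 127 and 67.7 on the liver array, which bounds what a dim spot can show. Albumin, the main secreted protein of hepatocytes, saturated both channels on the liver array and read 170 in Cy3 and 191 in Cy5 on the stomach array.

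Parietal cells acidify the stomach by exchanging cytoplasmic protons for potassium through a pump of a catalytic and a glycosylated subunit, with chloride and potassium channels and a basolateral bicarbonate exchanger that keep the exchange running. Chief cells at the gland base secrete pepsinogen, which the acid turns into pepsin, with other digestive enzymes. Intrinsic factor, which carries vitamin B12 to the ileum, comes from chief cells in the mouse and from parietal cells in humans. Loss of both cell types is a known feature of gastric atrophy and metaplasia.

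Promoters of 6 of the 8 genes were in the RefSeq table used here (assembly GRCm38.p6); Atp4b and Aqp4 were not among them. Each window lies on the plus strand and runs from 250 bases before to 50 bases after the annotated start. The windows of Atp4a (chr7:30711959-30712258), Pgc (chr17:47726592-47726891), Chia1 (chr3:106113132-106113431) and Cblif (chr19:11747309-11747608) are shown because these genes had among the largest channel differences on the stomach array. Those of Slc26a9 (chr1:131743772-131744071) and Lipf (chr19:33960998-33961297) are shown for contrast. Capitals mark every match to the motifs searched on both strands.
Atp4a: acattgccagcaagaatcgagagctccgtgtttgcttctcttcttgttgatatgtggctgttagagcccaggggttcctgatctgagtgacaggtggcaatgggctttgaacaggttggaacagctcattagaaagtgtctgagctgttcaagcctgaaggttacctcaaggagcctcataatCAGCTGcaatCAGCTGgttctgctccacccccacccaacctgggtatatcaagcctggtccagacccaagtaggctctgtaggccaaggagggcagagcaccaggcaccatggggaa
Pgc: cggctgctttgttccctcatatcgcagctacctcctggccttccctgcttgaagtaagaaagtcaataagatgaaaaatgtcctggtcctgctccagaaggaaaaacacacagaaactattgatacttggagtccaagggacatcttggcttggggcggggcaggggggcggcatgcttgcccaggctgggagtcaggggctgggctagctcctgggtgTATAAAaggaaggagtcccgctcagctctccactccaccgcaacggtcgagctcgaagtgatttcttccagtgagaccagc
Chia1: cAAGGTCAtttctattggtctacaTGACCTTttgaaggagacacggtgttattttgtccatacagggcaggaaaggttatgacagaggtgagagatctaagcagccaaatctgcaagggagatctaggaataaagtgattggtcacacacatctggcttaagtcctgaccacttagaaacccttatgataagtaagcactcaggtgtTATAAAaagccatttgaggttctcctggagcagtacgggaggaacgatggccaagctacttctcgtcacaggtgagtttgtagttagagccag
Cblif: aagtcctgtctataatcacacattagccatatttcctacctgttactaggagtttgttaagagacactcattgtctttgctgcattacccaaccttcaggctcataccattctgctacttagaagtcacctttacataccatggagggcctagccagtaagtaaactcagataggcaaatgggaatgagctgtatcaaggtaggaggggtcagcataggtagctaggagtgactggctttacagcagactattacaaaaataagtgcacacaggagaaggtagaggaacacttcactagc
Slc26a9: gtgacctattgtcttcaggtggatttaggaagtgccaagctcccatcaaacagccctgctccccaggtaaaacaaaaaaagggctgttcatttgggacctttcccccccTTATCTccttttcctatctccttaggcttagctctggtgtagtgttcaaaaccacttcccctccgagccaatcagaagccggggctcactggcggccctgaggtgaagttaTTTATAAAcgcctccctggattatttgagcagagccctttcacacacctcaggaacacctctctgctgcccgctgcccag
Lipf: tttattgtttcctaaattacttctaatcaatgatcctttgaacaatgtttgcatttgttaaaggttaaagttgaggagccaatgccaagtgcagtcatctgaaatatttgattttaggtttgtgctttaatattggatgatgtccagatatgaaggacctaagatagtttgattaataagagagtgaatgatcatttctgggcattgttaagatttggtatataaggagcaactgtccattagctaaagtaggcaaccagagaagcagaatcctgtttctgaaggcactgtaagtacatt

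The motifs were AGATAA and GATAGC, written for GATA factors, AAGGTCA for oestrogen-related receptors, CAGCTG and CATATG for basic helix-loop-helix factors, and TATAAA for the TATA box. Atp4a held CAGCTG at 67 and 57 bases before the start, a motif found in 16.3% of 32851 promoters of this length. Chia1 held AAGGTCA at 249 and, on the reverse strand, 226 bases before the start, and this motif was in 4.72% of all promoters. TATAAA, in 13.6% of all promoters, stood 43 bases before the start of Chia1 and 31 bases before that of Pgc. In Slc26a9 it stood at 28 and, overlapping on the reverse strand, 30 bases before the start. Slc26a9 also held AGATAA on the reverse strand, 141 bases before the start, a motif of 11.2% of all promoters. None of the motifs was in the windows of Cblif and Lipf, GATAGC (5.92% of all promoters) and CATATG (3.91%) were in none of the 6, and no match here shows that a factor binds.

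On the stomach array 6 of the 8 genes were at least 2-fold brighter in Cy3 and 0 in Cy5. The background on that array was 1.41% of 25322 measured genes in the Cy3 direction and 0.873% in the Cy5 direction. The median log2 ratio of the 8 genes was -4.15, against 0.00 over all measured genes. For 5 genes, Chia1, Atp4b, Cblif, Atp4a and Pgc, the difference was at least 16-fold, and they took ranks 1, 2, 4, 8 and 9 of all measured genes counted from the Cy3 side. Slc26a9 ranked 227, Aqp4 596 and Lipf 2293.

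**Figure D1:**
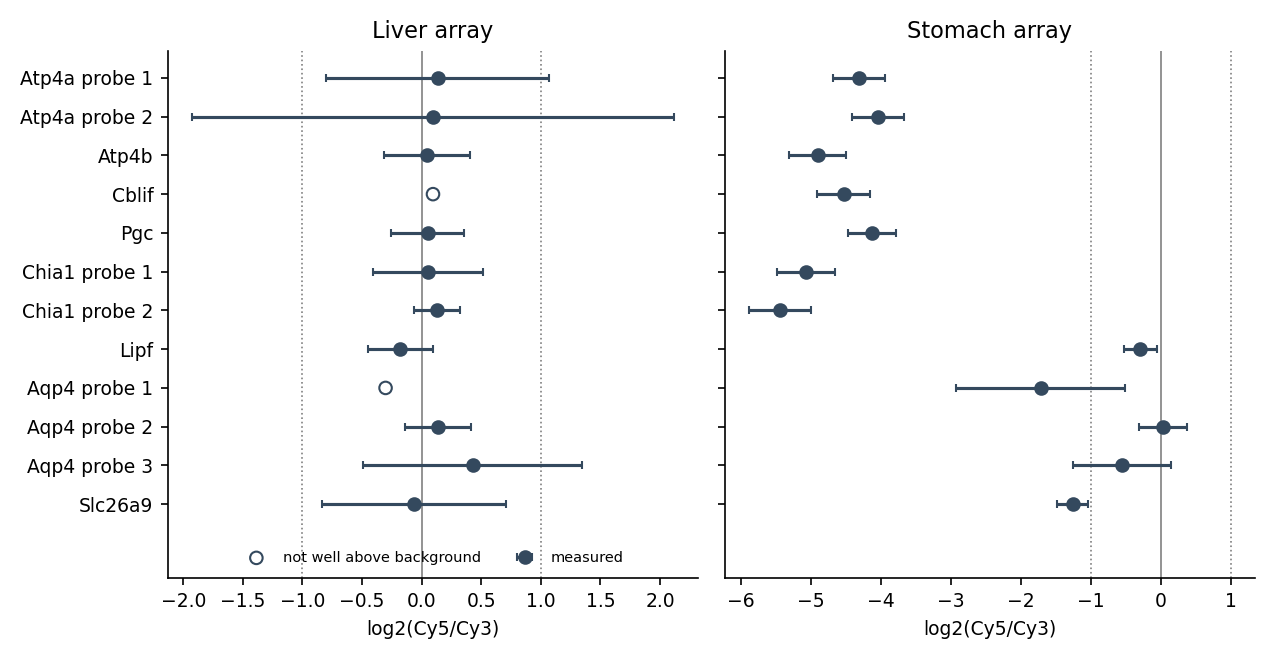
Log2 Cy5 over Cy3 ratio (x axis) of each of the 12 probes on the liver array (left) and the stomach array (right). Bars are the scanner software's error, open points were not well above background in either channel, and dotted lines mark 2-fold. On the stomach array the probes of 5 genes lie between -5.44 and -4.05, while measured probes on the liver array lie between -0.18 and 0.43.

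The proton pump led the parietal cell products. Atp4a, the catalytic subunit, read 8590 in Cy3 and 1060 in Cy5 on its first probe of the stomach array, and 2740 and 357 on its second. Cy3 was brighter on both probes, by 19.9-fold and 16.5-fold after normalization. The gene's log2 ratio was -4.18 ± 0.19 (SD, 2 probes), or 18.1-fold. Atp4b, the glycosylated subunit that carries the pump to the membrane, read 32900 in Cy3 and 3090 in Cy5. Its log2 ratio was -4.91 ± 0.41 (scanner error, 1 probe), or 30.0-fold.

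Slc26a9, a chloride transporter of gastric epithelium, read 572 in Cy3 and 414 in Cy5. Its log2 ratio was -1.26 ± 0.22 (scanner error, 1 probe), or 2.39-fold, just past the size used for a call. With median centring in place of the loess curve it was -0.78 and no longer counted.

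Aqp4, the water channel of the basolateral membrane of parietal cells, had 3 probes that did not give 1 answer. The first read 224 in Cy3 and 75.8 in Cy5, where it was not well above background. This set a lower limit of 3.04-fold brighter in Cy3, which leaves out the scanner error of 1.21. The second read 225 and 281, a log2 ratio of 0.03. The third read 184 and 127, with a log2 ratio of -0.55 ± 0.70 (scanner error). All 3 were close to the negative controls in at least 1 channel or dim in both. The gene's mean was -0.74 ± 0.89 (SD, 3 probes), an error larger than the value. With a normexp offset of 10 the mean was -1.26 and with the scanner software's own processing -1.92, which would count as 2-fold, and with the brightest probe alone it was 0.03.

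Among the secreted products, Cblif, the vitamin B12 carrier known as intrinsic factor, read 15000 in Cy3 and 1680 in Cy5, a log2 ratio of -4.53 ± 0.38 (scanner error, 1 probe), or 23.2-fold. Pgc, the pepsinogen that is cleaved to the protease gastricsin, read 60600 and 10900, a log2 ratio of -4.13 ± 0.35 (scanner error, 1 probe), or 17.4-fold. It stayed bright in the dimmer channel. Chia1, the acidic chitinase that mouse chief cells secrete, had 2 probes. The first read 25800 in Cy3 and 2080 in Cy5, or 33.7-fold. The second read 65300 and 4500 and was saturated in Cy3, so its 43.5-fold is a lower limit. The gene's log2 ratio of -5.26 ± 0.26 (SD, 2 probes) was the lowest of any measured gene on the stomach array, and includes the saturated spot.

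Lipf, gastric lipase, a fat-splitting enzyme, did not share this difference. It read 324 in Cy3 and 389 in Cy5 on the stomach array, a log2 ratio of -0.29 ± 0.24 (scanner error, 1 probe), or 1.22-fold. On the liver array the Lipf probe read 296 and 288, so it gave no clear stomach signal in which a difference could be seen. Its signal was far below that of the other secreted products on their own probes, and signals of different probes cannot be compared as levels.

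The authors' deposited table listed 7 of the 12 spots, of 6 genes, in its stomach list of Cy3-high spots, headed as down in tumour, and none in the Cy5-high list. These were both Atp4a probes and 1 probe each of Atp4b, Cblif, Pgc, Chia1 and Slc26a9. That list in the authors' deposited table held 3.33% of all gene spots. The saturated Chia1 spot and the spots of Lipf and Aqp4 were not in the authors' deposited table for stomach.

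On the liver array the products were dim and alike in both channels, and 0 of 7 measured genes reached 2-fold. The background there was 0.0703% of 25606 measured genes in the Cy3 direction and 0.152% in the Cy5 direction. Measured probes had log2 ratios from -0.18 to 0.43. Atp4a read 159 in Cy3 and 130 in Cy5 on its first probe and 144 and 97.9 on its second. Its log2 ratio was 0.11 ± 0.03 (SD, 2 probes), but the mean scanner error was 1.48, so the SD understates the error. Over the settings run the ratio went from -0.03 to 0.44. Atp4b, at 223 and 226, differed by no more than Atp4a. Pgc read 249 and 272, Slc26a9 174 and 134, and Lipf 296 and 288. The first Chia1 probe read 203 and 192 and the second 437 and 606. Cblif, at 130 and 76.9, was not well above background in either channel and counts as not measured, as did the first Aqp4 probe at 141 and 70.7. The other Aqp4 probes read 263 and 312, and 150 and 144, with a gene mean of 0.28. None of the 12 spots was in the liver lists of the authors' deposited table, which held 1.04% and 1.25% of gene spots.

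**Figure D2:**
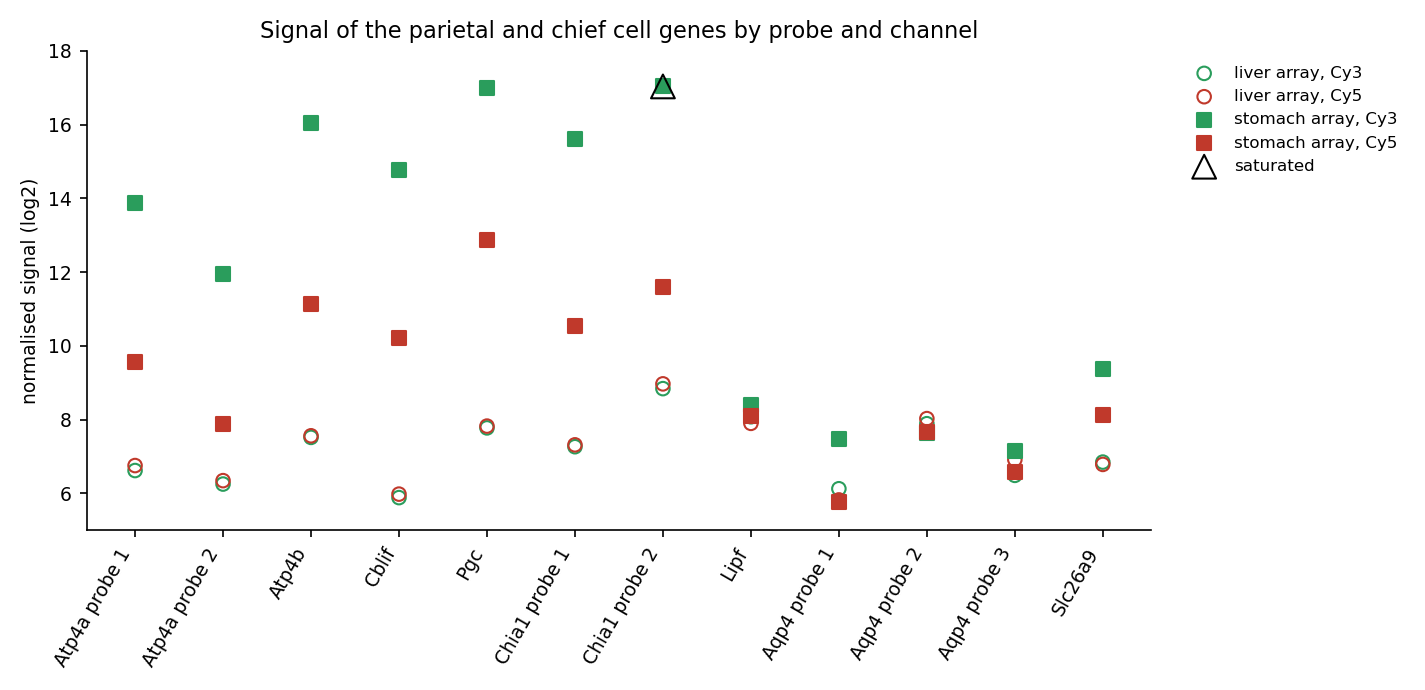
Channel levels of each probe (y axis, log2 intensity after normalization and scaling between arrays; heights compare only within a probe) in Cy3 (green) and Cy5 (red) of the liver (open) and stomach (filled) arrays; the triangle marks the saturated spot. For 5 genes stomach Cy3 is the highest point, stomach Cy5 lies lower, and both liver channels lie lowest; Lipf stays between 7.90 and 8.38 in all 4 channels.

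Levels of the same probes were then ordered over the 4 channels, after scaling the arrays to each other. By the mean of its probes, each of the 8 genes was brightest in stomach Cy3, Lipf and Aqp4 by little; with median centring or the brightest probe alone it was 7 genes. Stomach Cy3 exceeded the higher liver channel 579-fold for Pgc, 439.9-fold for Cblif, 356-fold for Atp4b, 290.3-fold for Chia1 (1 of its probes saturated) and 81.8-fold for Atp4a, with Cblif set against liver spots that were at background. Over the settings run the excess ranged from 301 to 3019-fold for Cblif, from 357 to 757-fold for Pgc and up to 224-fold for Atp4a, and Cblif exceeded Pgc with offset 10 and with the scanner's processing. The excess was 5.81-fold for Slc26a9, 1.41-fold for Aqp4 and 1.24-fold for Lipf.

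The dimmer stomach channel, Cy5, still stood above liver for 6 genes. Stomach Cy5 exceeded the higher liver channel 33.2-fold for Pgc, 19.0-fold for Cblif, 11.9-fold for Atp4b, 7.58-fold for Chia1, 4.52-fold for Atp4a and 2.43-fold for Slc26a9. These sizes depended on the processing, up to 126-fold for Cblif, 10.7-fold for Atp4a and 4.06-fold for Slc26a9, and all 6 stayed above 2-fold in every setting run. For Lipf the ratio was 1.01 and for Aqp4 0.84, so no clear excess of stomach Cy5 over liver was seen for either. No error was worked out for differences between arrays. The Lipf level lay between 7.90 and 8.38 on the log2 scale in all 4 channels, and the second Aqp4 probe between 7.64 and 8.02.

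In lung, 4 of the 12 spots, of 2 of the 8 genes, were listed, all among the Cy3-high spots. That list of the authors' deposited table held 9.78% of gene spots and its Cy5-high counterpart 5.51%, and both began at 2-fold. Aqp4 was listed on its first probe at 4.46-fold and on the third probe at 3.85-fold, in the authors' deposited table. Its second probe, which also gave no difference on the stomach array, was not listed there. Both Chia1 probes were listed in the authors' deposited table, at 2.46-fold and 2.34-fold. Atp4a, Atp4b, Cblif, Pgc, Slc26a9 and Lipf were in no lung list of the authors' deposited table, so only a difference that met its criteria is known to be lacking. Lung spots were joined to probes by spot number, and of 829 genes with several listed lung probes in the authors' deposited table, 803 had them all in 1 direction.

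Other genes of the parietal and chief cell were less uniform. Of 36 measured genes in 4 lists, 8 were at least 2-fold brighter in stomach Cy3 and 0 in Cy5. Several of the others were dim in both channels, where a difference could be missed. Slc26a7 probes read 144 in Cy3 and 91.4 in Cy5, and 163 and 92.8, and the brighter Lgr5 probe 196 and 189. Of 13 genes for ion transport and acid secretion, 5 were Cy3-high, with a list median of -0.69. Kcne2, the beta subunit of the potassium channel that recycles potassium to the pump, read 1920 in Cy3 and 268 in Cy5, a log2 ratio of -3.88. Clic6, a chloride channel family protein, was at -2.65, Ckb, the brain-type creatine kinase that buffers ATP, at -2.36, and Slc4a2, the basolateral bicarbonate exchanger, at -1.80. The potassium channel gene Kcnj16 was at -1.46 ± 1.06 (SD, 3 probes), with probes from -2.58 to -0.46. Car2, the carbonic anhydrase that supplies protons, was at 0.74 and passed 2-fold in Cy5 with median centring, at 1.81.

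Of 5 receptors that start or restrain acid secretion, 0 reached 2-fold in either direction, with a median of -0.26. All their probes were dim, with raw Cy3 from 135 (Ptger3) to 262 (Sstr2) against a negative control median of 119. The scanner error was 2.35 for Ptger3 and 0.85 for Chrm3, so a difference in receptor RNA could be missed. The somatostatin receptor Sstr2 was at -0.57, the prostaglandin receptor Ptger3 at -0.33, the histamine receptor Hrh2 at -0.26 and the muscarinic receptor Chrm3 at -0.01. Of 10 vesicle and regulatory genes 1 was Cy3-high, and the list median was -0.16, or 0.30 with median centring. That was Esrrg, a nuclear receptor needed for parietal cell genes in the mouse, at -1.51 ± 1.48 (SD, 2 probes): its probes gave -2.56 and -0.47, and the call is lost with the brightest probe alone. Ppargc1a, a coactivator of mitochondrial genes, was at -0.71, Rab11fip1, a Rab11 effector of vesicle traffic, at 0.40 and the transcription factor Gata4 at -0.26.

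Of 8 measured chief cell zymogens and secretory regulators, 2 were Cy3-high, with a median of -0.30. Pdia2, a protein disulphide isomerase, read 5290 in Cy3 and 564 in Cy5, a log2 ratio of -4.43, close to that of Cblif. Bhlha15, the transcription factor Mist1 that sets up the secretory apparatus, was at -1.07 ± 1.39 (SD, 2 probes), with probes at -2.05 and -0.09, so its call rests on 1 probe. Xbp1, a regulator of endoplasmic reticulum capacity, was at -0.46 and the pepsinogen gene Pga5 at -0.41. The Pga5 probe was dim, at 216 in Cy3 and 190 in Cy5. No gene of these 4 lists reached 2-fold on the liver array.

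**Figure D3:**
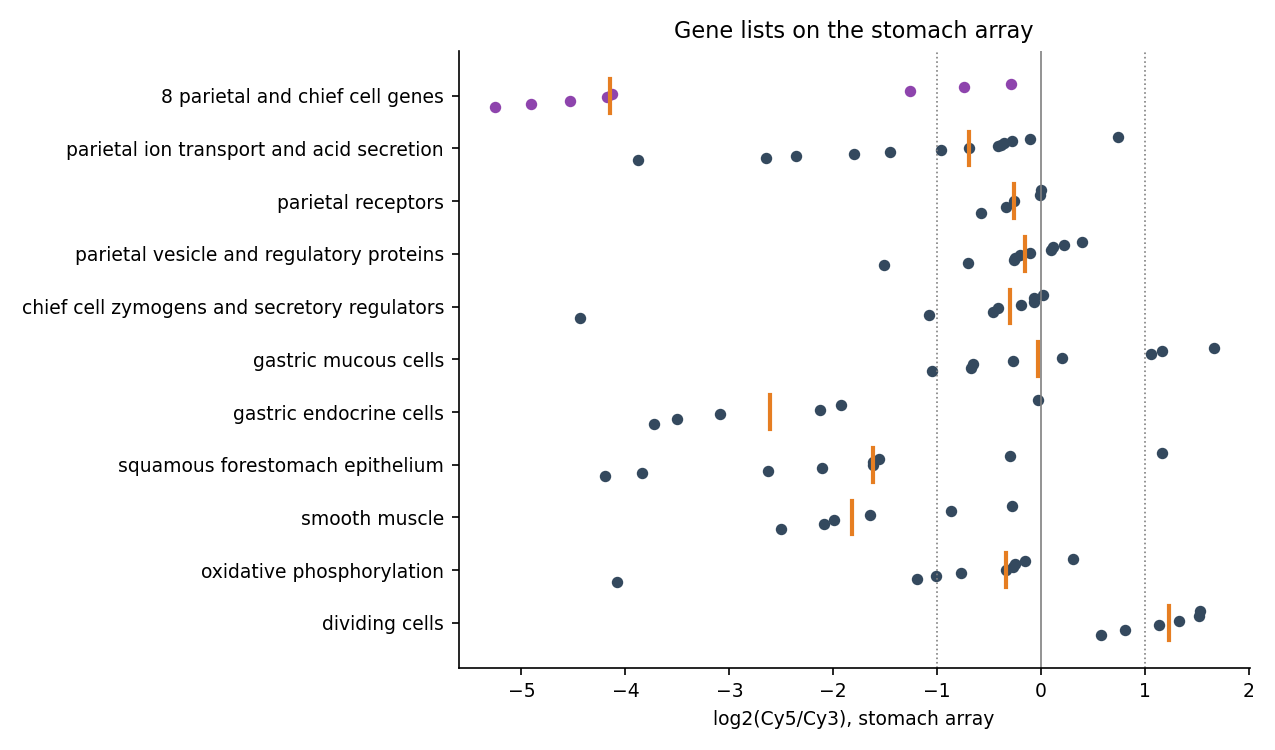
Log2 Cy5 over Cy3 ratio on the stomach array (x axis) of every measured gene of the 8 products, of the other parietal and chief cell lists and of 6 further lists (rows). Orange bars are list medians, and dotted lines mark 2-fold. The 8 products have a median of -4.15, the other parietal and chief cell lists between -0.69 and -0.16, and endocrine cells -2.61.

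Markers of endocrine cells, squamous forestomach and smooth muscle lay mostly on the same side as the products. All other marker lists together had 25 of 72 measured genes Cy3-high and 14 Cy5-high. That total also holds mucous, dividing cell, metaplasia and oxidative phosphorylation genes and genes of other organs, not all of which lay on that side. Of 6 gastric endocrine genes 5 were Cy3-high, among them Chga and Chgb, proteins of secretory granules, at -3.73 and -3.09, Ghrl, the hormone ghrelin, at -3.50 and Hdc, the histamine-making enzyme, at -2.13. Their summed level was 41986 in Cy3 and 4841 in Cy5. Such sums, here and below, add levels of different probes and are set mostly by the brightest. Of 9 squamous forestomach genes 7 were Cy3-high and 1 Cy5-high, with sums of 33462 and 4613, and the cornified envelope gene Lor at -4.20 and the keratin Krt4 at -3.84. In that list the probes of Trp63 and Krt13 disagreed, with SDs of 2.19 and 2.66 over 2 probes each. Of 6 smooth muscle genes 4 were Cy3-high, with sums of 13819 and 4392, and the calponin gene Cnn1 at -2.51 and the myosin Myh11 at -2.09. The part of these tissues in the products' difference was not tested.

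Mucous cell genes did not lie on one side: 1 of 8 was brighter in Cy3 and 3 in Cy5, and their median was -0.03. That median lay on the Cy5 side with median centring, at 0.70, and with saturated spots left out, at 0.20. The trefoil peptide of surface cells, Tff1, was at -1.05 and Tff2 of neck cells at 1.17, both on 1 spot that was saturated in Cy5, so the Cy3 excess of Tff1 is an upper limit and the Cy5 excess of Tff2 a lower one. The gastrokine Gkn3 was at 1.66 and the disulphide isomerase Agr2 at 1.06. Of 6 genes of dividing cells 4 were Cy5-high and none Cy3-high, their median was 1.23, and the proliferation antigen Mki67 was at 1.53. The dividing cell genes that passed 2-fold thus stood on the other side of the array from the gastric products, whichever dye held the tumour.

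In lung, the listed genes of the parietal and chief cell lists lay on both sides. In the authors' deposited table, 3 of the ion transport genes were Cy3-high, Kcne2 at 6.01-fold, Ckb and Clic6, and 4 were Cy5-high, Car2 at 10.7-fold, Kcnq1 at 4.54-fold, Atp1b1 and Slc4a2. Of the vesicle and regulatory list, Ppargc1a was Cy3-high and 4 genes, Ezr, Lasp1, Rab11a and Rab25, were Cy5-high, and 0 of the receptors were listed in the authors' deposited table. Of the chief cell list, Tnfrsf19 at 11.2-fold and Bhlha15 at 2.05-fold were Cy3-high in the authors' deposited table. Beside the 2 listed products, 4 of 6 lung epithelial genes were Cy3-high and 0 Cy5-high in the authors' deposited table, as were 4 of 6 smooth muscle genes. Other lists went the other way: 3 of 8 mucous, 3 of 9 squamous and 2 of 6 dividing cell genes were Cy5-high, and 0 Cy3-high. The lung lists held 9.78% of gene spots as Cy3-high and 5.51% as Cy5-high. The part of any of these cells in the Aqp4 and Chia1 values was not tested.

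The 8 products did not share 1 profile. Over the 4 channel levels, centred on each gene's mean, Chia1 lay 0.75 log2 units from the median profile of the 8, Atp4a 0.76, Atp4b 1.05, Cblif 1.54 and Pgc 2.14. Slc26a9 lay at 3.88, Aqp4 at 5.56 and Lipf at 5.66, the last pair with nearly flat profiles. Of 26151 genes ranked, the 6 outside genes nearest to the median profile were Ghrl at 0.79, Pdia2 at 0.91, the vesicle traffic gene Tmed6 at 1.25, Lor at 1.43, Cnn1 at 1.81 and the tropomyosin Tpm2 at 1.89. These include genes of endocrine, squamous and muscle tissue, and 4 channels of 2 arrays are few points for likeness.

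**Figure D4:**
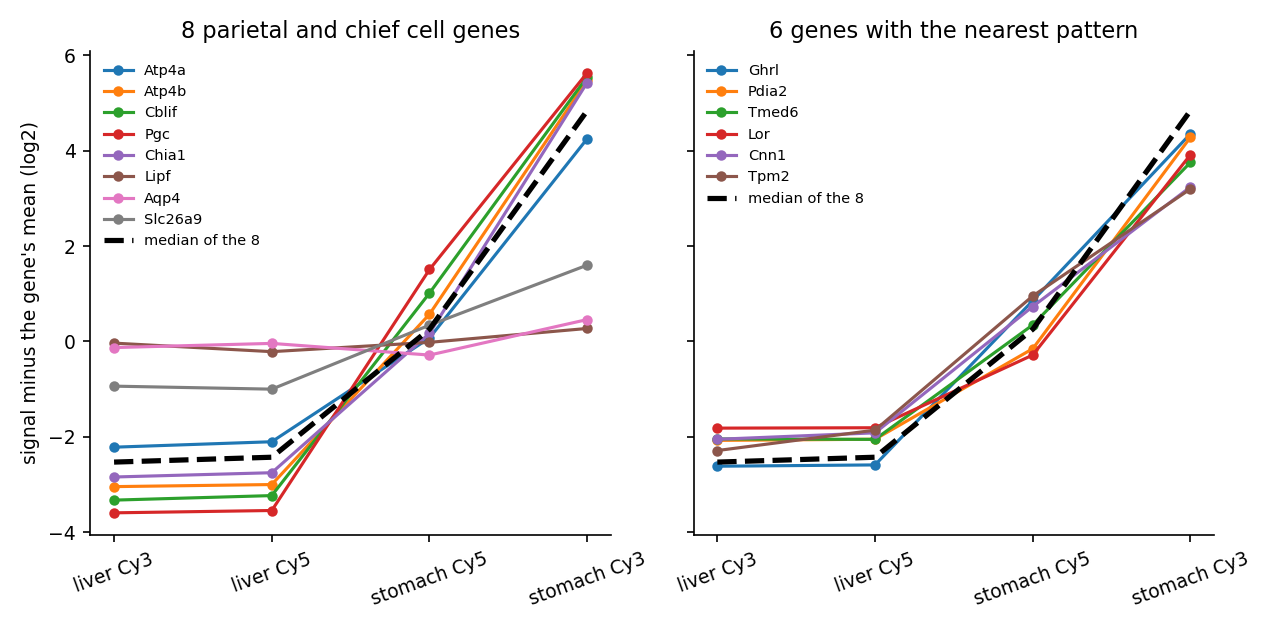
Centred log2 channel levels (y axis) of the 8 products, their median (dashed, both panels) and the 6 nearest genes over liver Cy3, liver Cy5, stomach Cy5 and stomach Cy3 (x axis); lines only join a gene's points. Chia1, Atp4a, Atp4b, Cblif and Pgc peak in stomach Cy3, while Slc26a9 rises less and Aqp4 and Lipf are nearly flat.

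The fit of the dye curve moved the sizes on the stomach array. With median centring in place of loess, the log2 ratios were -4.18 for Chia1, -3.85 for Atp4b, -3.59 for Cblif, -3.43 for Atp4a and -2.90 for Pgc, each still Cy3-high. That setting turned the sign of Lipf, to 0.09. Median centring also turned the array's calls from 61.8% to 18.8% on the Cy3 side, so these 5 genes stayed Cy3-high where most calls became Cy5-high.

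**Figure D5:**
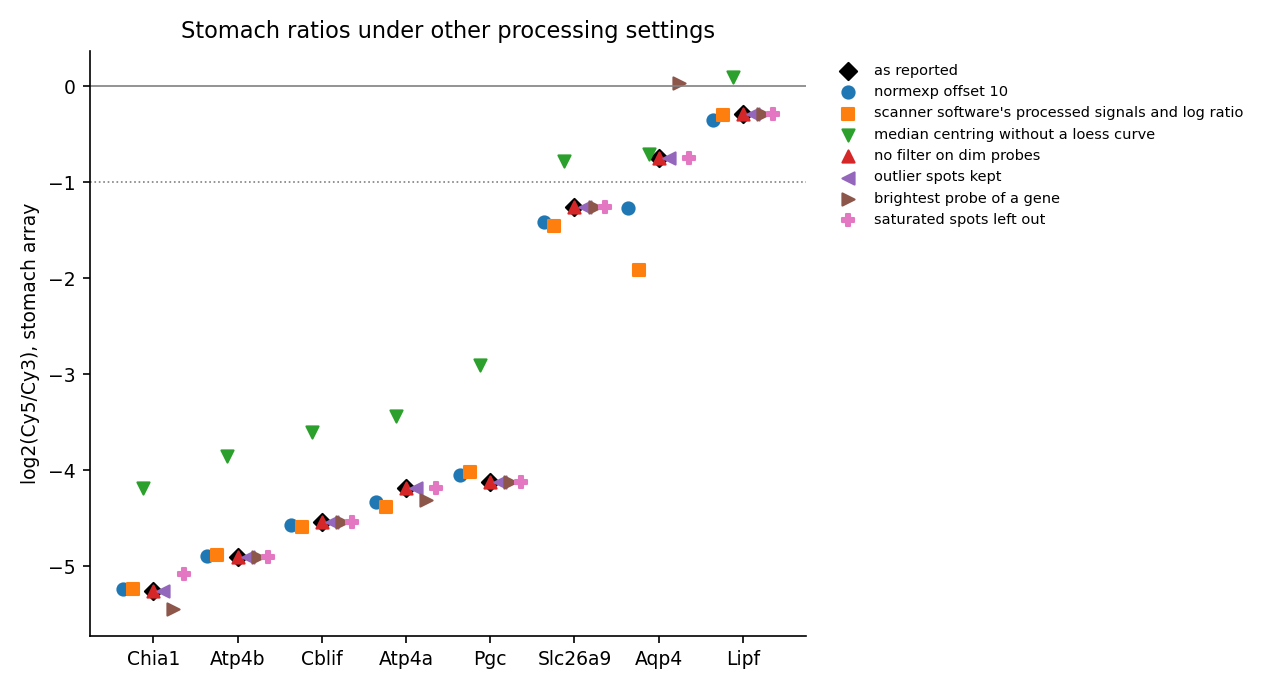
Log2 Cy5 over Cy3 ratio on the stomach array (y axis) of each of the 8 products under every processing setting run, with the reported value as a diamond and 2-fold as a dotted line. Chia1, Atp4b, Cblif, Atp4a and Pgc stay at or below -2.90, and Aqp4 spans -1.92 to 0.03.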

How the data were processed

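RNA of 1 liver, 1 stomach and 1 lung tissue pair was compared on 2-colour Agilent arrays, from 500 ng of total RNA per the labels' protocols; per the submitters' processing notes, Agilent Feature Extraction 8.5.1.1 was used. Each array had 41534 gene spots. The deposited intensity columns hold mean spot and median local background intensities, not normalized, per the file headers. The deposited log10 ratio is Cy5 over Cy3 with the software's error, and the deposited p-value tests it for 1 spot, per the file headers. The authors' deposited table stacks up and down lists per organ, and its spot number and log10 ratio were used; 4 other columns of per-spot values, which name no sample, were left unused. For probe coordinates, no genome build is given in the sources used here. Medians of raw Cy3 and Cy5 intensity were 180 and 152 on the liver array and 171 and 163 on the stomach array, and 1 array per organ limits the precision.

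Backgrounds were corrected with normexp (offset 50) and log2 ratios normalized by loess in limma 3.58.1 (R 4.3.3), controls at weight 0. Control and outlier spots were left out, and probes dim in both channels (not well above background) or saturated in both were dropped. A gene's value is the mean of its probes. For lower limits and levels across organs, channels were scaled between arrays (Aquantile). A fold is a lower limit, open to dye bias, where the dimmer channel was at background or the brighter one saturated, and an upper limit where only the dimmer one was saturated. Probes were named through RefSeq (GRCm38.p6, names only): 22951 of 41174 by accession, 6659 by symbol and 3096 by synonym, and 8468 kept the file's name. Later steps used Python 3.11.15, numpy 2.4.6 and pandas 2.3.3. The normalization was tested on simulated data with differences set only at spots of middle brightness, so it does not cover differences at dim or saturated spots.

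Named are all 8 products, up to 4 genes with the largest ratio from each list, and the 6 nearest genes by distance. Others were chosen after their values were seen: Kcnj16 and genes named for lung, dim probes, the low end of a list or a lost or gained call. The products and lists were chosen with earlier results of these data known. Alternatives were offset 10, the scanner's processing, median centring, no filter on dim probes, outlier spots kept, the brightest probe and, chosen after seeing the data, saturated spots left out.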

Additional observations from a re-analysis of the deposited data

How the results depend on the processing

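The counts of the 8 products, of the other parietal and chief cell genes together, of the other markers together, of lung listings and of promoter motifs stayed within 1.5 times under every setting run, with 3 exceptions. With median centring 1 other parietal gene, Car2, became Cy5-high where 0 were; at a limit of 4-fold 1 product, Aqp4, was listed in lung where 2 were; and in the 100 bases before the start 0 promoters held a GATA motif where 1 did in the whole window. The count of Cy3-high products on the stomach array was 5 with median centring (Slc26a9 lost), 7 with offset 10 and with the scanner's processing (Aqp4 gained), and 6 otherwise. Over all genes the Cy3-high and Cy5-high counts on the stomach array were 358 and 221, against 587 and 441 with offset 10, 1049 and 1093 with the scanner's processing and 235 and 1017 with median centring. On the liver array 18 and 39 became 104 and 113 with offset 10, 420 and 541 with the scanner's processing and 7 and 110 with median centring. Within single lists, Esrrg was lost with the brightest probe, and Bhlha15 with the brightest probe and with median centring. Kcnq1, at -0.69 ± 0.86 (SD, 2 probes), was gained on the Cy3 side with the brightest probe, at -1.30. Slc26a7 was gained there with the scanner's processing, at -1.24. Median centring turned the medians of the vesicle, mucous and oxidative phosphorylation lists to 0.30, 0.70 and 0.39. The cause was not tested. Low signals, some of them near the negative controls, limit Lipf, Aqp4, the receptors and the products on the liver array. They also limit other parietal and chief cell genes, among them Slc26a7, Slc9a4, Pga5 and Lgr5. Slc26a9 was brighter on the stomach array, at 572 in Cy3 and 414 in Cy5, but its call was lost with median centring. Saturation limits 1 Chia1 probe, Tff1, Tff2, Gkn2 and Clps. Without saturated spots the marker counts of 25 Cy3-high and 14 Cy5-high were 23 and 13. No paired analysis was possible because each organ had 1 array and no result came from a test.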

Other observations

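Digestive enzyme genes shared with the pancreas were partly high in the same channel as the gastric products. Of 9 exocrine pancreas genes 4 were Cy3-high on the stomach array and none Cy5-high; the median log2 ratio was -0.44. They were the lipase-related Pnliprp2 at -3.74 and Pnliprp1 at -1.54, the colipase Clps at -2.68 (saturated in Cy3) and the amylase Amy2 at -2.06. The pancreatic lipase Pnlip was at -0.08 and the protease Cpb1 at -0.01. Of 5 hepatocyte genes 1 was Cy3-high, the apolipoprotein Apoa1, at -3.24, with a median of -0.26.

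Genes that mark spasmolytic polypeptide expressing metaplasia, a lineage that appears where parietal cells are lost, were partly high in the opposite channel. Of 9 such genes 5 passed 2-fold in Cy5 and 0 in Cy3; the median was 1.22. They were led by Dmbt1, a mucosal scavenger protein, at 2.38, Clu, a secreted chaperone, at 1.77 and Cftr, a chloride channel, at 1.60 ± 1.62 (SD, 2 probes), an error as large as the value. Sox9, a progenitor cell factor, was at -0.26. Of 9 oxidative phosphorylation genes 3 were Cy3-high, with a median of -0.34 that turned to 0.39 with median centring: Cox7a1, the muscle form of a cytochrome oxidase subunit, at -4.08, Cox6c at -1.19 and Ndufa4 at -1.01. Of 5 lung epithelium genes 1 was Cy5-high, the surfactant protein gene Sftpd at 1.89, and 0 were Cy3-high.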
